A study of Mus musculus with 653 samples.

Results

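The genes described here are 10 genes of mesenchymal transition and cell adhesion: the cadherins Cdh2 and Cdh11, the adhesion molecule Ncam1, the intermediate filament Vim and the transcription factors Zeb1, Zeb2, Snai1, Snai2, Twist1 and Twist2. They were chosen by name, as 10 of the 54195 genes in the raw count table of single mouse liver cells, and all 10 had reads. Livers were taken at embryonic day E10.5 or E13.5 from embryos of Lgr5-EGFP-IRES-creERT2 males, kept on a C57BL/6 background, and MF1 females, so that eGFP marks cells in which the Lgr5 locus is or was recently active. Single cells were sorted within a Liv2+ gate that left out CD31+ and CD45+ cells, either whole (bulk) or as its Lgr5-GFP+ cells, and each was sequenced as a full-length library by an adapted Smart-seq2 protocol. The 4 groups, E10.5 bulk, E10.5 Lgr5-GFP+, E13.5 bulk and E13.5 Lgr5-GFP+, held 653 cells of the 943 that the design text names, with 414 cells at E10.5 and 239 at E13.5. The bulk sorts gave 362 of them and the Lgr5-GFP+ sorts 291, of which 80 were from E13.5. All cells share the reporter cross and the Liv2 gate. The paper describes littermates with and without the reporter, told apart by GFP signal, and no group is labelled as coming from those without it. The labels name no embryo, litter or sort, so each group counts as 1 sample, no p-value can be given, and intervals cover counting error only.

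In an epithelial to mesenchymal transition, cells give up tight contacts, which rest on E-cadherin (Cdh1), and take on the loose, motile form of mesenchyme. Factors of the Snail, Zeb and Twist families repress epithelial genes through E-box motifs, and N-cadherin (Cdh2) and vimentin are classic markers of the mesenchymal side. The liver bud arises as hepatoblasts leave the gut epithelium and move into the mesenchyme of the septum transversum, and blood precursors then settle among them.

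Cells were grouped by marker reads. A cell with more than 10 reads of exactly 1 of Afp (a hepatoblast gene), Klf1 (an erythroid factor) and Pdgfra (a receptor of mesenchyme) belonged to that class, and one over 10 reads of Epcam alone to the Epcam-only class. This gave 61 Afp-positive, 160 Klf1-positive, 150 Pdgfra-positive and 20 Epcam-only cells, with 10 cells over 10 reads of more than 1 of the first 3 markers and 252 cells without a marker. All cells were labelled as hepatoblasts, but only 66 of 653 had more than 10 reads of Afp. At least 3 of 7 hepatoblast genes had more than 10 reads in 60 of 61 Afp-positive cells, at least 3 of 7 erythroid genes in 150 of 160 Klf1-positive cells, and at least 3 of 7 mesenchyme genes in all but 18 of 150 Pdgfra-positive cells. The classes fell unevenly over the groups: 53 of the 61 Afp-positive cells were E10.5 Lgr5-GFP+, all but 35 of the 160 Klf1-positive cells were E13.5 bulk, and the Pdgfra-positive class held 76 E10.5 bulk, 66 E10.5 Lgr5-GFP+, 1 E13.5 bulk and 7 E13.5 Lgr5-GFP+ cells. The cell names give 5 library pools, each with cells of all 4 groups. Reads per cell had a median of 1192740 (463347 to 2279700), but the median cell of pools 1 and 2 had 4515 and 4488 genes with reads, against 6606, 6550 and 6280 in pools 3 to 5, and 33 of the 61 Afp-positive cells were in pool 2.

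On GRCm38, Snai1 lies at chr2:167538195-167542814, Zeb2 at chr2:44983632-45117395, Vim at chr2:13573927-13582826, Snai2 at chr16:14705852-14709385, Twist1 at chr12:33957671-33959829, Twist2 at chr1:91801461-91848028, Ncam1 at chr9:49502136-49798925 and Cdh11 at chr8:102632095-102785642. For some of the members, the sequence upstream of the start could be searched for the motif that the Snail and Zeb factors bind. RefSeq windows on GRCm38.p6 were found for 5 of the 10 genes (Vim, Zeb2, Snai1, Twist1 and Twist2). The 250 bases before each RefSeq start were searched for CACCTG and its reverse complement CAGGTG, which covers both strands. RefSeq starts can differ from the gene limits given above. The Vim window, chr2:13574061-13574310, and some of the Zeb2 windows lie inside those limits. The motif was in 17.2% of all 32851 windows, and 2.06% held more than 1 match. Of the 5 members, 1 held it, Snai1, which is near the share of all windows. Snai1 is shown for its single match, at chr2:167538069-167538074, Epcam for its 2 matches, at chr17:87635792-87635797 and chr17:87635960-87635965, and Twist1 for having none. Matches are in capitals.
Snai1, chr2:167537945-167538194, + strand: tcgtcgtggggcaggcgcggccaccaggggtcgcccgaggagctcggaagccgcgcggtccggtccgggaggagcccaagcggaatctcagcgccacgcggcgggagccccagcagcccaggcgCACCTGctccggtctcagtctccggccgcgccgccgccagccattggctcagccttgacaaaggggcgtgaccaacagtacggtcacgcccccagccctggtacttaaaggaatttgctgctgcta
Epcam, chr17:87635729-87635978, + strand: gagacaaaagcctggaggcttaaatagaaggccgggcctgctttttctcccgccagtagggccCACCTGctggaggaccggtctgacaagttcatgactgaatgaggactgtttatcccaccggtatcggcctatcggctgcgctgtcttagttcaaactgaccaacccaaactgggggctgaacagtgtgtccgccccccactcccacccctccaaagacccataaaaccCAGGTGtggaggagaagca
Twist1, chr12:33957421-33957670, + strand: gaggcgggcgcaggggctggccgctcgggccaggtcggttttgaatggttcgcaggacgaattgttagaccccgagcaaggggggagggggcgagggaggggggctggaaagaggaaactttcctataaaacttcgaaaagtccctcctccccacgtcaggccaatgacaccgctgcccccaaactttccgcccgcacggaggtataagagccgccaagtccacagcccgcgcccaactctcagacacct
The windows of Vim, Twist2 and Zeb2 also held no match, and neither they nor Twist1 held the wider E-box CANNTG, which was missing from 33.8% of all windows. Among the class markers, the windows of Afp, Klf1 and Pdgfra held no CACCTG or CAGGTG either. A match is a string of letters and not a binding site, and its absence says nothing of the factors.

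Ranked over the 4 marked classes, 8 of the 10 genes had their highest level in the Pdgfra-positive class: Cdh2, Cdh11, Vim, Zeb1, Snai1, Snai2, Twist1 and Twist2. Levels are given as RPM, reads per 1000000 reads on genes, pooled over a class so that deeper cells weigh more. Of all 13026 genes that reached 5 RPM in a class, 24.2% were highest in the Pdgfra-positive class. The exceptions were Ncam1, 1 of 10 and highest in Epcam-only cells (32.3% of all genes), and Zeb2, highest in Klf1-positive cells (23.8%). None of the 10 was highest in Afp-positive cells (19.6%). The 252 cells without a marker were left out of this ranking. Over the 5 pools they held 301.7 to 450.2 RPM of Zeb2, above the 126.01 to 295.5 RPM of Klf1-positive cells. Their Zeb1 was at 119.6, 280.6, 266.4, 214.1 and 191.7 RPM in pools 1 to 5. In Pdgfra-positive cells it was at 57.4, 391, 129.6, 178.8 and 172.8 RPM. Vim was at 648.3 and 698.5 RPM in the cells without a marker of pools 1 and 4, against 445.9 and 634.3 RPM in Pdgfra-positive cells. In pools 2, 3 and 5 Vim was lower than in Pdgfra-positive cells. Cdh11 and Snai2 were higher in cells without a marker in pool 1 alone, and Twist1 and Twist2 in pool 2 alone. Snai1 was higher there in pools 2 and 4, and Cdh2 in no pool. The 10 genes were not alike in the other classes. Cdh2 and Zeb1 were also carried by Afp-positive cells, and Zeb2, Zeb1 and Vim by Klf1-positive cells. Cdh11, Snai1, Snai2, Twist1 and Twist2 lay below 20 RPM in the Afp-positive, Klf1-positive and Epcam-only classes. Snai1 was near this limit in Epcam-only cells, at 19.2 RPM. Over the 2 pools with at least 5 such cells, Snai1 ranged from 12.6 to 37.8 RPM and Twist2 from 0 to 43 RPM.

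**Figure D1:**
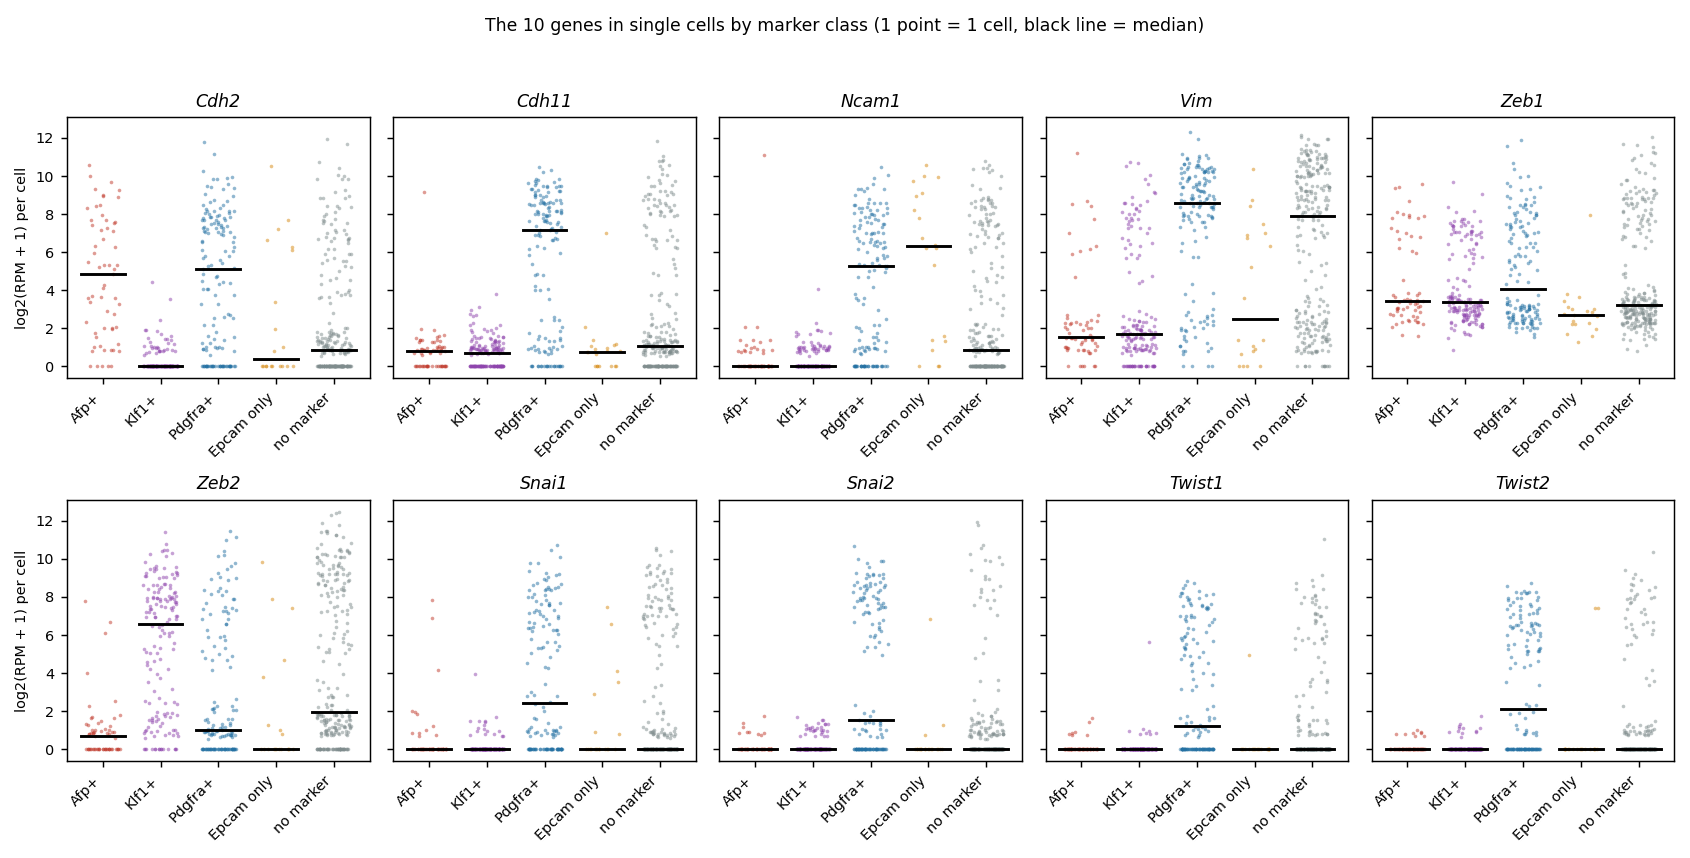
Level of each of the 10 genes in every cell, as log2(RPM + 1) on the vertical axis, for cells of 5 marker classes on the horizontal axis. Each point is 1 cell and the black line is the median. Most genes split into cells near 0 and cells with high levels, and Snai2, Twist1 and Twist2 have no high point in the Afp-positive class.

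Cdh2, N-cadherin, joins like cells and is a marker of mesenchyme, but Afp-positive cells held it at a similar level. Like Zeb1, it lies on chromosome 18. Its reads came to 162.6 RPM (159.8 to 165.5, exact 95% Poisson interval) in Afp-positive cells and to 174.8 RPM (172.9 to 176.7) in Pdgfra-positive cells, a log2 difference of 0.10. Within the 4 pools with at least 5 cells of both classes this difference ran from -0.20 to 1.70, so the order of the 2 classes was not the same in every pool. More than 10 reads were found in 60.7% of Afp-positive cells (47.3 to 72.9, exact 95% binomial interval), 58.7% of Pdgfra-positive cells (50.3 to 66.6), 30% of Epcam-only cells and 0.625% of Klf1-positive cells. The Klf1-positive level was 0.412 RPM. The Klf1-positive cells were low in all 5 pools, from 0.147 to 0.966 RPM.

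Within the Afp-positive class, single cells ran from 0 to 1519 RPM of Cdh2 with a median of 28.2 RPM. The 6 E10.5 bulk cells had 227 RPM and the 53 E10.5 Lgr5-GFP+ cells 160 RPM. In both E13.5 Afp-positive cells Cdh2 was at 0 reads. The 14 Afp-positive cells that also had more than 10 reads of Epcam, an adhesion molecule of epithelia, held 96.5 RPM of Cdh2, and the 47 without it 181.1 RPM. The shares of cells over 10 reads were 71.4% and 57.4%, in the opposite order to the levels. Cdh1, E-cadherin, was low in the class, at 11.7 RPM with 8.2% of cells over 10 reads, and 4 of 61 cells had more than 10 reads of both cadherins.

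Among the 4 marked classes, Cdh11, the cadherin of loose mesenchyme and bone precursors, kept much closer to the Pdgfra-positive cells. It came to 243 RPM (241 to 245) in Pdgfra-positive cells, 7.94 RPM in Afp-positive, 8.07 RPM in Epcam-only and 0.903 RPM in Klf1-positive cells. More than 10 reads were present in 66.7% of Pdgfra-positive cells, and in 1 cell each of the Afp-positive, Epcam-only and Klf1-positive classes. Single Pdgfra-positive cells ran from 0 to 1401 RPM with a median of 143.9 RPM. By group they held 195.4 RPM in E10.5 bulk, 281 RPM in E10.5 Lgr5-GFP+ and 368 RPM in the 7 E13.5 Lgr5-GFP+ cells. Among the 150 Pdgfra-positive cells, 69 had both cadherins over 10 reads, 19 Cdh2 alone, 31 Cdh11 alone and 31 neither. Among the 61 Afp-positive cells, 37 had Cdh2 alone, 1 had Cdh11 alone and none had both.

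Ncam1, a homophilic adhesion molecule of the immunoglobulin family best known from nerve and muscle, was the 1 member highest in Epcam-only cells. It came to 307 RPM (300 to 314) there, against 134.3 RPM (132.6 to 135.9) in Pdgfra-positive cells, and 65% (40.8 to 84.6) and 58% of cells were over 10 reads. Of the 20 Epcam-only cells, 9 had more than 10 reads of both Ncam1 and Cdh1, and 6 of both Ncam1 and Cdh2. With 20 cells these shares are imprecise, and 22.1% of the Ncam1 reads of the class lay in 1 cell. In Klf1-positive cells Ncam1 was at 0.435 RPM.

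Vim, vimentin, the intermediate filament of mesenchyme and of many blood and endothelial cells, had the highest level per length of the 10 in Pdgfra-positive cells. It came to 607 RPM (603 to 610) in Pdgfra-positive cells, 124.7 RPM in Epcam-only, 94.5 RPM in Klf1-positive and 60.9 RPM in Afp-positive cells. More than 10 reads were found in 77.3%, 50%, 28.1% and 18% of them. Per kilobase of annotated exon, the Pdgfra-positive levels were 127.9 RPM for Vim, 78.7 for Snai2, 77.99 for Snai1, 35.5 for Twist1, 27.3 for Cdh11, 21.7 for Cdh2, 19.5 for Twist2, 16.9 for Zeb1, 15.5 for Ncam1 and 6.42 for Zeb2. The ranges over the 5 pools overlapped for every pair of neighbours in this order, for instance 12.8 to 52.9 for Twist1 and 7.503 to 37.47 for Cdh11. The range of Vim, 91.3 to 173.3, did not overlap that of Twist1.

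The Afp-positive values of Vim, Ncam1 and Cdh11 rested on 1 cell. It was an E13.5 Lgr5-GFP+ cell with 224 reads of Afp, and it held 2268 of the 4597 Vim reads, 2090 of the 2118 Ncam1 reads and 547 of the 600 Cdh11 reads of the class. It had 0 reads of Cdh2 and at most 2 of each of the 6 factors. The 59 E10.5 Afp-positive cells had 31.8 RPM of Vim, 0.382 RPM of Ncam1, 0.696 RPM of Cdh11 and 167.5 RPM of Cdh2.

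Across the 10 genes, 2 had more than 10 reads in at least 50% of the Afp-positive cells, Cdh2 and Zeb1. This is near the share of all genes, since 15.7% of the 13026 genes did. Zeb1 had a median of 11 reads in these cells, and 59% of them were over 10 reads. The receptor genes Vmn2r63 and Tarm1, picked after their values were seen, were over 10 reads in 57.4% and 78.7% of them. Levels were at least 2-fold higher in Pdgfra-positive than in Afp-positive cells for 8 of 10 genes, against 30.4% of 11705 genes at 5 RPM or more in either class, and the 2 within 2-fold were again Cdh2 and Zeb1. Over Klf1-positive cells, 9 of 10 were at least 2-fold higher, against 35.6% of 11402 genes, and Zeb2 lay on the other side at a log2 difference of -0.87. In each pool with at least 5 cells of both classes, the sign was that of all pools together, except for Cdh2 in 1 of 4 pools and for Zeb2 in 1 of 5. The 2-fold calls did not hold in every pool. Snai1 over Afp-positive cells differed by 0.38 in pool 2 (5.04 against 3.88 RPM), which held 33 of the 61 Afp-positive cells. Zeb1 over Klf1-positive cells differed by 0.61 in pool 1 and 0.72 in pool 3.

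**Figure D2:**
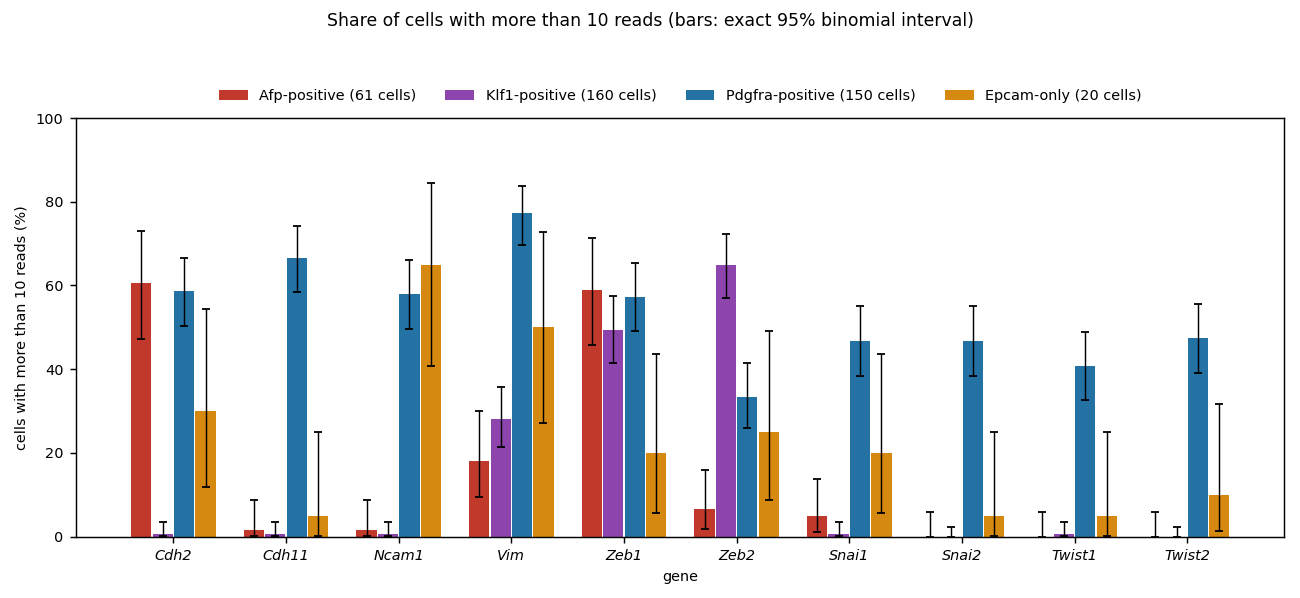
Share of cells with more than 10 reads of each gene, in percent, for the Afp-positive, Klf1-positive, Pdgfra-positive and Epcam-only classes, with exact 95% binomial intervals as bars. Cdh2 stands at about the same height in Afp-positive (60.7%) and Pdgfra-positive cells (58.7%), Zeb2 is highest in Klf1-positive cells (65%), and Snai2 and Twist2 are at 0% in the Afp-positive and Klf1-positive classes.

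Zeb1 and Zeb2, the zinc finger homeobox repressors, differed in the class that held them. Zeb2 came to 234 RPM (231 to 236) in Klf1-positive cells, 127.9 RPM (126.3 to 129.6) in Pdgfra-positive, 68.7 RPM in Epcam-only and 7.79 RPM in Afp-positive cells, and 65% (57.1 to 72.4), 33.3%, 25% and 6.56% of them were over 10 reads. Among Klf1-positive cells the pools reached from 126.01 to 295.5 RPM. Zeb1 came to 173.6 RPM (171.7 to 175.5) in Pdgfra-positive cells, 94.4 RPM (92.2 to 96.6) in Afp-positive, 55.6 RPM in Klf1-positive and 20.2 RPM in Epcam-only cells. Among Afp-positive cells Zeb1 ranged from 89.1 to 105.7 RPM over the 4 pools with at least 5 such cells, and it was at 104.6 RPM in the 53 E10.5 Lgr5-GFP+ and 36.8 RPM in the 6 E10.5 bulk cells. Afp-positive cells thus held Zeb1 with little Zeb2. Per kilobase of exon, Klf1-positive cells held 11.7 RPM of Zeb2 and 5.42 RPM of Zeb1. Single Klf1-positive cells ran from 0 to 2734 RPM of Zeb2 with a median of 96.1 RPM, and single Pdgfra-positive cells from 0 to 2810 RPM with a median of 0.977 RPM.

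Zeb1 was also the 1 member with reads in every cell. At least 1 read of Zeb1 was found in all 653 cells, which was so for 84 of the 28292 genes with reads, or 0.297%. The median cell had 11 reads, and 62.9% of the cells had 1 to 20 reads and 2.72% of all Zeb1 reads between them. The genes Vmn2r63, Pkhd1 and Tarm1, a pheromone receptor, a cilium protein and a receptor of myeloid cells, chosen after their values were seen, also had reads in every cell, with medians of 9, 24 and 11 reads. The median of Zeb1 differed between pools, at 6, 11, 47, 54 and 17 reads in pools 1 to 5. A threshold of 10 reads therefore lies within the range of these low reads, so that the share of cells over 50 reads was used as well. It was 32.8% in Afp-positive, 28.7% in Klf1-positive, 44% in Pdgfra-positive and 5.0% in Epcam-only cells, and 217 cells in all. Whether the low reads of Zeb1 come from its transcript was not tested.

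**Figure D3:**
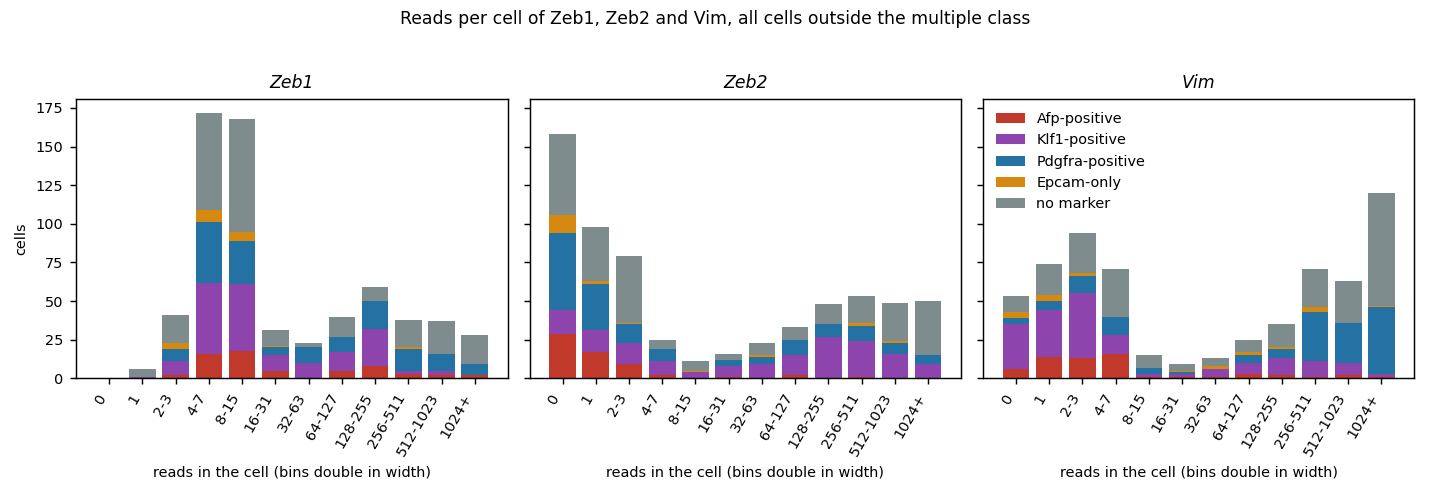
Number of cells (vertical axis) by reads of Zeb1, Zeb2 and Vim in the cell (horizontal axis, bins that double in width), stacked by marker class and without the 10 cells of more than 1 class. Over all 653 cells, 24.3% were at 0 reads of Zeb2 and 8.27% at 0 reads of Vim, whereas none was at 0 for Zeb1 and 62.9% lay at 1 to 20 reads.

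At more than 50 reads, Zeb1 and Zeb2 were found together in 22 of 150 Pdgfra-positive cells, with 44 cells holding Zeb1 alone and 19 Zeb2 alone. In the Klf1-positive class 32 of 160 cells held both, 14 Zeb1 alone and 58 Zeb2 alone. Among the 61 Afp-positive cells, 1 held both, 19 Zeb1 alone and 2 Zeb2 alone.

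Snai1 and Snai2, the Snail and Slug repressors, were both found in mesenchyme, together in some cells and alone in others. Snai1 came to 126.4 RPM (124.8 to 128.05) and Snai2 to 159.1 RPM (157.3 to 160.97) in Pdgfra-positive cells, and each was over 10 reads in 46.7% of them. Single cells ran from 0 to 1691 RPM of Snai1 and from 0 to 1615 RPM of Snai2, with medians of 4.37 and 1.85 RPM. Both were over 10 reads in 43 cells, Snai1 alone in 27, Snai2 alone in 27 and neither in 53. The share with both was 28.7% (21.6 to 36.6), and the product of the separate shares is 21.8%. In Afp-positive cells Snai2 had 13 reads in all (0.172 RPM) and no cell over 10 reads, which allows a share of up to 5.87%. Snai1 was at 4.36 RPM with 3 of 61 cells over 10 reads, and 47.1% of its reads lay in 1 cell. Pools differed most for Snai1: it ranged from 5.04 to 196.3 RPM in Pdgfra-positive cells, against 113.5 to 214.2 RPM for Snai2.

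Twist1 and Twist2, the basic helix-loop-helix factors of head, limb and dermal mesenchyme, were highest in Pdgfra-positive cells and near 0 in Afp-positive and Klf1-positive cells. They came to 57.8 RPM (56.7 to 58.9) and 61.9 RPM (60.8 to 63.1) in Pdgfra-positive cells, to 0.119 and 0.106 RPM in Afp-positive and to 0.323 and 0.0780 RPM in Klf1-positive cells. Single Pdgfra-positive cells ran from 0 to 455 RPM of Twist1 and from 0 to 423 RPM of Twist2, with medians of 1.31 and 3.38 RPM, so that many cells were at or near 0. No Afp-positive cell had more than 10 reads of either. Among Pdgfra-positive cells 46 of 150 held both, 15 Twist1 alone, 25 Twist2 alone and 64 neither. Epcam-only cells held 1.20 RPM of Twist1 and 14.4 RPM (12.9 to 15.96) of Twist2, with 1 and 2 of 20 cells over 10 reads, and 69.7% of the Twist2 reads lay in 1 cell.

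Counting the 6 factors per cell showed how Pdgfra-positive cells differed from the other marked classes. The median Pdgfra-positive cell had 3 of the 6 factors over 10 reads, and 52% (43.7 to 60.2) had 3 or more. All 6 were found in 7 cells and none in 14. The median was 1 in Afp-positive, Klf1-positive and Epcam-only cells, and 3 or more factors were found in 0, 2 and 1 of these cells. The 252 cells without a marker had a median of 2, and 22.2% of them had 3 or more. In the 10 cells over 10 reads of more than 1 class marker, the median was 3.5 and 70% had 3 or more. With Zeb1 left out because of its low reads in every cell, 54 of 61 Afp-positive cells had none of the other 5 factors, and the medians were 0 in Afp-positive and 2 in Pdgfra-positive cells. The count moved with the number of genes detected. Its median in Pdgfra-positive cells was 1 and 1 in pools 1 and 2, where the median Pdgfra-positive cell had 4592 and 4210 genes, and 4, 4 and 3 in pools 3 to 5, with 6980, 6878 and 6078 genes. The part of gene detection in these counts was not tested. In each pool with at least 5 Afp-positive cells, their median was 1 with Zeb1 and 0 without it. In pool 2, with 33 of the 61 Afp-positive cells, the median of the 6 factors thus was 1 in both Afp-positive and Pdgfra-positive cells, and without Zeb1 it was 0 and 1.

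**Figure D4:**
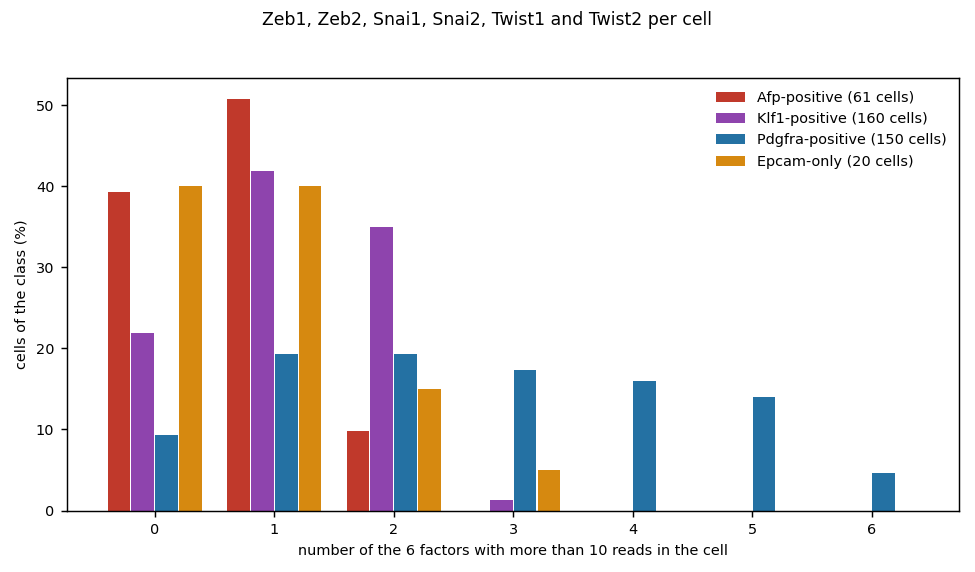
Share of cells of each marker class, in percent, by how many of Zeb1, Zeb2, Snai1, Snai2, Twist1 and Twist2 had more than 10 reads in the cell. Afp-positive cells end at 2 factors, whereas Pdgfra-positive cells spread from 0 to 6 with a median of 3.

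The sorts were compared within the Pdgfra-positive cells of E10.5, where both held enough cells, to ask whether Lgr5-GFP+ and bulk mesenchyme carried these genes alike. Of the 10 genes, 3 were at least 2-fold apart between the 66 Lgr5-GFP+ and 76 bulk cells, a share close to the 28.7% of 11427 genes. Zeb2 and Cdh2 were lower and Twist1 higher in Lgr5-GFP+ cells. The other 7, among them Vim (567 against 524 RPM), Snai1 (113.8 against 142.8 RPM) and Snai2 (157.9 against 167.8 RPM), were within 2-fold.

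Zeb2 came to 28.1 RPM (26.9 to 29.2) in Lgr5-GFP+ and 166.7 RPM (164.02 to 169.3) in bulk cells, a log2 difference of -2.57. It was lower in all 5 pools, from -5.46 in pool 1 to -0.07 in pool 5. The shares of cells over 10 reads overlapped, 27.3% (17.03 to 39.6) against 32.9% (22.5 to 44.6), and the median level among the cells over 10 reads was 66.5 RPM against 283 RPM. The difference thus lay in how many reads the positive cells held more than in how many cells were positive. Of the bulk Zeb2 reads 18% lay in 1 cell.

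Twist1 came to 88.7 RPM (86.7 to 90.7) in Lgr5-GFP+ and 34.04 RPM (32.9 to 35.3) in bulk cells, a log2 difference of 1.38, and 57.6% (44.8 to 69.7) against 30.3% (20.2 to 41.9) of cells were over 10 reads. It was higher in all 5 pools, from 0.08 to 2.65, and without pool 4 the difference was 0.83. Twist2 differed by 0.95, just inside 2-fold, at 86.2 against 44.8 RPM, with 63.6% against 38.2% of cells over 10 reads, and was higher in 3 of 5 pools. Both Twist genes were over 10 reads in 33 of 66 Lgr5-GFP+ and in 13 of 76 bulk cells.

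Cdh2 came to 107.7 RPM in Lgr5-GFP+ and 229.8 RPM in bulk cells, a log2 difference of -1.09, but the shares of cells over 10 reads were 59.1% and 56.6%. A single bulk cell held 18.6% of the bulk reads. The difference ran from -3.60 in pool 2 to 0.74 in pool 5, and it was -0.65 without pool 2 and -0.84 without pool 1.

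Other values moved with the sort in these cells. The median Lgr5-GFP+ cell had 6757 genes with reads and the median bulk cell 5443, and Pdgfra itself was at 244 and 420 RPM. The summed level of 7 mesenchyme genes was 5277 RPM in Lgr5-GFP+ and 3544 RPM in bulk cells, with at least 3 of them over 10 reads in 61 of 66 and 63 of 76 cells. The summed level of 6 muscle progenitor genes was 85.5 against 15.8 RPM (0 to 2279 and 0 to 1080 per cell, with Lbx1 at 0 in bulk cells), of 6 mesothelium genes 248 against 122.03 RPM (0 to 6494 and 0 to 1410, with Msln at 0 in both), and of 7 endothelium genes 22.2 against 47.8 RPM (0 to 309 and 0 to 1238). Their part in the differences was not tested.

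**Figure D5:**
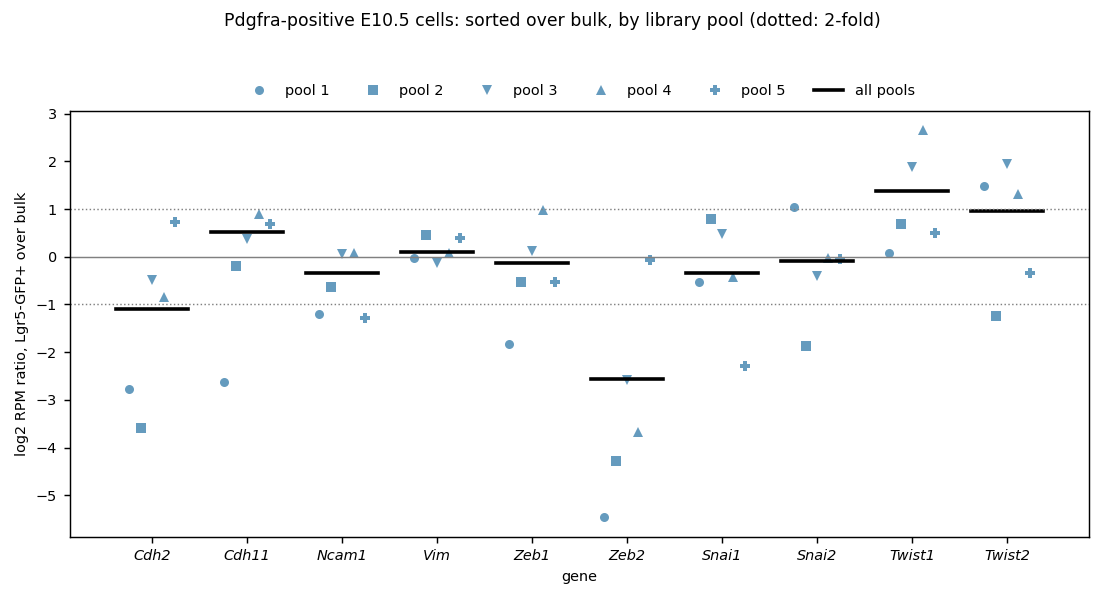
Log2 ratio of RPM in Lgr5-GFP+ over bulk cells for each gene among Pdgfra-positive E10.5 cells, with 1 point for each of the 5 library pools. The black line is the value for all cells together. The dotted lines mark 2-fold. Zeb2 is below 0 and Twist1 above 0 in all 5 pools, whereas Cdh2 and Twist2 have pools on both sides.

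Among the marked classes, the stages could be compared in the erythroid class only, since bulk Pdgfra-positive cells numbered 1 at E13.5 and bulk Afp-positive cells 0. Among bulk Klf1-positive cells, of which 32 were from E10.5 and the rest from E13.5, 3 of the 10 genes reached 5 RPM at either stage and could be compared. Of these 3, 1 was at least 2-fold lower at E13.5 (16.6% of 9348 genes) and none was at least 2-fold higher (13.4%). The lower gene was Vim, at 61 RPM (59.7 to 62.3) at E13.5 and 207.3 RPM (202.8 to 211.9) at E10.5, a log2 difference of -1.77. More than 10 reads were found in 20% (13.4 to 28.1) and 59.4% (40.6 to 76.3) of these cells. Vim was lower at E13.5 in each of the 3 pools with at least 5 cells of both stages, by log2 differences of -4.09, -0.40 and -1.25. Zeb2, a factor also needed in blood development, was at 245 RPM at E13.5 and 185.7 RPM at E10.5, 0.40 apart with 2 of 3 pools of that sign, and Zeb1 was at 56.5 and 56.8 RPM. The remaining 7 genes were below 5 RPM at both stages and were not called.

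Markers of other cells differed between the stages too. The summed erythroid list was at 4968 RPM at E13.5 and 2064 RPM at E10.5, the leukocyte list of 6 genes at 30.6 and 96.4 RPM (0 to 520 and 0 to 721.1 per cell), the megakaryocyte list of 4 genes at 48.3 and 121.5 RPM (0 to 2071 and 0 to 1082), and the mesenchyme list at 6.06 and 89.99 RPM, the latter with 1 cell at 4167 RPM. Over 10 reads of at least 3 genes of the mesenchyme, leukocyte, megakaryocyte or endothelium list were found in 2 E13.5 and 5 E10.5 cells. Without them Vim was at 54.7 and 166.2 RPM, -1.60 apart, and Zeb2 at 225.6 and 105.96 RPM, 1.09 apart, which put Zeb2 past 2-fold. These lists were applied after the data were seen.

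The E13.5 Lgr5-GFP+ mesenchyme was limited to 7 cells, too few for a comparison. They held 1912 RPM of Vim, 439 RPM of Zeb2, 368 RPM of Cdh11, 349 RPM of Zeb1 and 214 RPM of Cdh2, with 90.3% of the Zeb1 reads in 1 cell. Twist1 and Twist2 had no cell over 10 reads, at 0.288 and 0.144 RPM.

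The 252 cells without a marker allowed a second look at the stages, in the 67 E13.5 and 71 E10.5 Lgr5-GFP+ cells among them. Of the 10 genes, 2 were at least 2-fold higher at E13.5, against 30.1% of 11892 genes, and 4 were at least 2-fold lower, against 22.4%. Zeb2 was at 686 RPM at E13.5 and 57.5 RPM at E10.5, a log2 difference of 3.57, and was higher in 5 of 5 pools. Zeb1 was at 521.3 and 151.6 RPM, higher in 4 of 5 pools. Twist2 was at 1.46 and 77.5 RPM, a log2 difference of -5.73, and was lower in 5 of 5 pools. Cdh11 (47.9 and 184.3 RPM), Snai1 (57.1 and 189.1 RPM) and Cdh2 (56.7 and 124.5 RPM) were also lower at E13.5. Cdh11 and Snai1 were lower in 5 of 5 pools, from -7.44 to -0.02 and from -3.00 to -0.19. Cdh2 was lower in 4 of 5 pools, from -7.81 to 0.28, and 63.5% of its E13.5 reads lay in 1 cell. Markers of other cells differed as well. At least 3 endothelium genes were over 10 reads in 20 of the E13.5 and 2 of the E10.5 cells, at least 3 leukocyte genes in 9 and 0, at least 3 muscle progenitor genes in 4 and 17 and at least 3 mesenchyme genes in 10 and 16. The summed muscle progenitor list was at 225 RPM at E13.5 and 413 RPM at E10.5 (0 to 2819 and 0 to 3252 per cell). The summed mesenchyme list was at 3511 and 948 RPM (0 to 63057 and 1.37 to 8790 per cell), while its median cell was at 16.7 and 298.7 RPM. Their part in the differences was not tested. Without cells of the endothelium, leukocyte and megakaryocyte lists, 39 and 68 cells remained, in which Zeb2 differed by 3.86, Zeb1 by 1.99 and Twist2 by -5.11, whereas Cdh2 differed by -0.33 and was no longer past 2-fold. Ncam1, 0.04 apart before with pools from -6.97 to 5.89, was past 2-fold in these cells, at 248.8 and 121.8 RPM. Cdh11 and Snai1 differed by -1.36 and -1.05.

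The wider set of 48 genes of cell adhesion and epithelial and mesenchymal state placed these values among their partners. Of the 48, 12 were highest in Pdgfra-positive cells, 24 in Epcam-only, 2 in Afp-positive and 1 in Klf1-positive cells, and 9 stayed below 5 RPM in all 4 classes. Of all genes, 24.2% were highest in Pdgfra-positive and 32.3% in Epcam-only cells. Of 9 further transition factors, 5 were highest in Pdgfra-positive cells, among them Prrx1, a homeobox factor of limb and body wall mesenchyme, at 288 RPM, Prrx2 at 94.3 RPM and Tcf4, an E-protein partner of basic helix-loop-helix factors, at 477 RPM. Tcf4 was also at 419 RPM in Epcam-only cells, and Tcf3, another of the 5, at 218 RPM in Pdgfra-positive and 208.5 RPM in Epcam-only cells. Of 11 genes of mesenchymal cytoskeleton, matrix and proteases, 6 were highest there, including Sparc, a matrix protein, at 1418 RPM and Acta2, smooth muscle actin, at 472 RPM with 32.7% of cells over 10 reads.

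The epithelial side lay in the Epcam-only cells. Of 13 epithelial genes, Epcam among them as the marker that set the class, 12 were highest there, as were 5 of 6 cadherins and 3 of 4 catenins. Cdh6 came to 638 RPM and Cdh1 to 152.6 RPM in this class, against 67.4 and 11.7 RPM in Afp-positive cells. Cldn6, a tight junction claudin, was at 1072 and 144.04 RPM. Krt18, a simple epithelial keratin, was at 598 RPM in Epcam-only and 600 RPM in Afp-positive cells. Of the 20 Epcam-only cells, 14 had more than 10 reads of Cdh1, and 4 had both Cdh1 and Cdh2. The share with both was 20%, and the product of the separate shares is 21%. No Pdgfra-positive cell had both, but only 1 of 150 had more than 10 reads of Cdh1. The product of the separate shares is 0.391% there, so these cells cannot show whether Cdh1 and Cdh2 exclude each other.

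Across all 653 cells, Pearson's r of log2(RPM + 1) described which genes were most like each member among 10352 genes with more than 10 reads in at least 5% of cells. It was highest for Twist1 with Prrx1 (0.54), for Twist2 with Crabp1, a retinoic acid binding protein (0.53), for Cdh11 with Ptn, pleiotrophin (0.59), for Cdh2 with Gpc3, a glypican of fetal liver (0.56), for Vim with Sparc (0.55) and for Snai2 with Cd248, a surface protein of stromal cells (0.49). Zeb2 was most like Runx1, a blood factor, and Fermt3, an integrin activator of blood cells (both 0.42), and no gene passed 0.28 for Zeb1. Among the members the highest value was that of Twist1 and Twist2 (0.45). Within the 76 bulk and 66 Lgr5-GFP+ Pdgfra-positive cells of E10.5, Prrx1 remained among the 3 genes most like Twist1 (0.49) and Sparc was again first for Vim (0.53). The number of genes detected differed between pools, so these values are a description.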

How the data were processed

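Per the labels and the methods, the authors sorted Liv2+ CD31- CD45- cells, made libraries with an adapted Smart-seq2 protocol and Nextera XT, aligned single-end reads to GRCm38.p6 with spike-in sequences (STAR 2.6.0c) and counted uniquely aligned reads per Ensembl gene (featureCounts, Subread 1.6.2). The deposited counts are raw reads without molecular identifiers, for cells that passed the authors' filters. The methods describe differences between sorts and a correction for them in a second deposited table of normalised values, which was not used. The protocol does not mark strand, and annotated genes on the opposite strand overlap 5 of the 10 members (Cdh2, Ncam1, Zeb1, Zeb2 and Twist2), so that reads of both cannot be told apart there.

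Groups were taken from each cell's labels, and gene names were given to 53944 of the 54195 genes by the GENCODE annotation. No cell column was left out (0 unused), and 0 cells had identical counts. Cells are named by pool and index pair, and 230 of 365 index pairs were used in more than 1 pool. No doublet caller was run, and the 10 cells with more than 1 of the first 3 class markers were kept apart. Counts were summed per class and given as RPM with exact Poisson intervals, and shares of cells with exact Clopper-Pearson intervals, both at 95% (scipy 1.17.1, Python 3.11.15). These cover counting error only. A ratio used a floor of 3 reads for a set with fewer, and genes at 5 RPM or more in either set were compared. A gene counted as apart at 2-fold. Cells of 1 group are not replicates, so no test was run. The members, the gene lists and the comparisons were chosen with earlier results of these data known. The named genes are the 10 members, the 4 class markers, the 48 genes of the wider list and the 3 genes most correlated with each member. The class definition, marker threshold, pools, depth, RPM filter and averaging were varied. The scripts were tested on simulated data.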

Additional observations from a re-analysis of the deposited data

How the results depend on the processing

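The counts of members were recomputed with overlapping classes, with marker thresholds of 50 and 100 reads, without each pool, in pools 1 and 2 or 3 to 5 alone, with each cell thinned to 100000 reads, with mean RPM per cell and with other read and RPM minimums. Over all pairs of a count and a setting, 70 left the count within 1.5 times its value and 10 moved it further. Of the single levels, shares and differences of members under these settings, 754 stayed within their counting interval or kept their 2-fold call and 466 did not, and no direction of a called difference was reversed. The number of members apart between stages in Klf1-positive cells was 7 with overlapping classes and 3 without the RPM filter, where values lie below 5 RPM, against 1. The number over 10 reads in at least 50% of Afp-positive cells was 1 in pools 1 and 2 alone, 0 after thinning, 5 at 1 read or more and 0 at more than 50 reads, against 2. The median number of factors per Pdgfra-positive cell was 1 in pools 1 and 2 alone, 4 in pools 3 to 5 alone, 1 after thinning and 4 at 1 read or more, against 3. Leaving out each pool in turn gave 7 to 8 members highest in Pdgfra-positive cells, 2 to 4 apart between sorts, 1 to 1 apart between stages, 2 to 2 over 10 reads in at least 50% of Afp-positive cells, a median of 2 to 3 factors, and 11 to 14 genes of the wider list highest in Pdgfra-positive cells. The causes were not tested. Pools 1 and 2 alone gave no value for the classes, with too few Epcam-only cells, nor for the stages, with too few E10.5 cells. No paired analysis was possible because the replicate numbers only name cells, and the labels do not tie cells to the sorts that the methods mention. Each group was 1 sample without a test, and differences within library pools stand beside the results. Single cells were called at 10 reads, a threshold that lies within the range of the low reads of Zeb1. Shares in the 20 Epcam-only cells stay wide.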

Other observations

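The 252 cells without a marker held levels of the 10 genes that differed by which other lists they carried, counted by more than 10 reads of at least 3 genes of 1 list. The sets, formed after the data were seen, were 52 cells by the mesenchyme list, 31 by endothelium, 24 by muscle progenitor, 19 by leukocyte, 14 by megakaryocyte and 11 by mesothelium genes. They share cells, since 20 cells matched more than 1 list, and 47.2% of the 252 cells matched none. The sort had excluded CD31+ and CD45+ cells, and endothelium and leukocyte genes were nevertheless read in these sets. Zeb2 was at 793 RPM (781 to 805) in the leukocyte set, 638 RPM (627 to 649) in the megakaryocyte set, where 14 of 14 cells were over 10 reads, and 513.3 RPM (506.5 to 520.2) in the endothelium set. Vim was at 943 RPM in the endothelium set and at 39.8 RPM in the megakaryocyte set, and Zeb1 at 394 and 5.28 RPM. The muscle progenitor set held 232 RPM (227 to 238) of Snai1 and 4.36 RPM (3.62 to 5.22) of Snai2, with 79.2% and 4.17% of 24 cells over 10 reads. Cdh11 was at 318 RPM in this set, with 83.3% of cells over 10 reads, and at 345 RPM in the mesenchyme set. It was at 21.2 RPM in the endothelium set and 0.998 RPM in the leukocyte set. The mesothelium set held 25.1 RPM of Snai1 and 153.01 RPM of Snai2, but 4 of 11 cells were over 10 reads of each, and 1 cell held 45.9% of the Snai2 reads.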
